A study of Sus scrofa with 4 samples.

Results

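The myogenic transcription factors and satellite cell genes of pig (Sus scrofa) muscle were described here by 10 genes chosen by name. They are PAX7, PAX3, MYF5, MYOD1, MYOG, MYF6, CDH15, MEF2A, MEF2C and MEF2D, and all 10 were found, with 1 row each, among the 29692 gene symbols of the table. RNA was sequenced from muscle biopsies to compare pig breeds that differ in muscularity, and each breed, Hampshire and Mali, has 2 libraries. The breed is the one attribute the labels give for a library. The muscle sampled, the age and sex of the pigs, and whether the libraries came from separate animals are not stated by the labels. The p-values therefore measure the spread between these samples, which may be technical. Hampshire replicate 1 and Mali replicate 1 carry titles without a suffix, and replicates 2 carry the suffix 1. Values are FPKM, sequenced fragments relative to the length of the gene and the size of the library, so levels can be compared between genes.

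Satellite cells are the stem cells of skeletal muscle, lying between a fibre and its basal lamina. Studies in mouse show that the paired-box factors PAX7 and PAX3 specify and maintain these cells and their embryonic precursors. The 4 basic helix-loop-helix myogenic regulatory factors then act in steps: MYF5 and MYOD1 commit cells to the muscle fate, MYOG (myogenin) drives terminal differentiation, and MYF6, also called MRF4, acts in differentiation and stays on in adult fibres. The MEF2 proteins are MADS-box factors that bind muscle promoters together with them, and CDH15 encodes M-cadherin, an adhesion protein between satellite cells and fibres.

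The 10 genes spanned a wide range of levels, and the MEF2 factors, MYF6, MYOG, MYOD1 and CDH15 stood far above PAX7, MYF5 and PAX3 in every library. MYF6 was the most abundant of the 10 on average, at 58.5 ± 27.1 FPKM (SD over the 4 libraries), followed by MEF2C at 52.3 ± 19.3, MEF2A at 28.7 ± 11.8, MYOG at 23.6 ± 3.43, MEF2D at 22.8 ± 4.79, MYOD1 at 15.9 ± 7.45 and CDH15 at 11.4 ± 4.09 FPKM. PAX7 followed at 1.01 ± 0.299, MYF5 at 0.531 ± 0.301 and PAX3 at 0.0493 ± 0.0436 FPKM. The ranges of neighbours in this order overlapped, with 2 exceptions. CDH15 lay above PAX7 in all 4 libraries without overlap, and MYF5 likewise lay above PAX3. Among all genes above 0 in a library, MYF6 stood at the 93.1 to 96.2 percentile, PAX7 at the 40.9 to 48.6 and PAX3 at the 2.8 to 20.0.

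**Figure D1:**
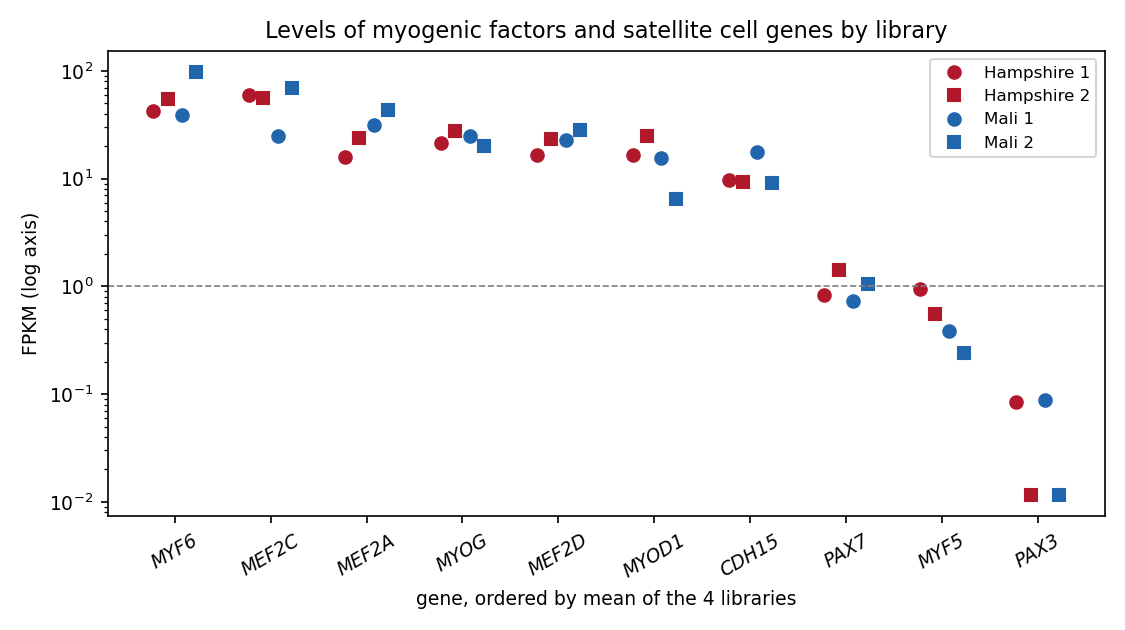
FPKM of the 10 genes on a log axis, with 1 point per library, red for Hampshire and blue for Mali, circles for replicates 1 and squares for replicates 2; the dashed line is 1 FPKM. CDH15 and the 6 genes to its left lie between 6.51 and 97.8 FPKM, PAX7 lies about the line, and MYF5 and PAX3 lie under it.

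No difference between the breeds passed the test for any of these genes. Genes were tested where at least 2 libraries reached 1 FPKM, which 8 of the 10 did, and MYF5 and PAX3 did not. With limma on log2(FPKM + 1) and Benjamini-Hochberg adjustment over all 10075 genes tested, 0 of the 8 had an adjusted p under 0.05, and 0 of the 8 had an unadjusted p under 0.05. Over all genes 0% passed adjustment and 7.09% had an unadjusted p under 0.05. In the authors' deposited table none of the 10 is marked as significant, with q-values from 0.830 for MEF2A to 1 for PAX3. The intervals given below show how large a difference the libraries still allow.

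Of the commitment factors, MYOD1 on chromosome 2 (41422522 to 41424236, minus strand, Sscrofa11.1) was at 16.7 and 24.7 FPKM among Hampshire libraries, compared with 15.7 and 6.51 among Mali. Both Hampshire libraries were above both Mali libraries, as 13% of the 10075 tested genes were, but Hampshire replicate 1 exceeded Mali replicate 1 by little and Mali replicate 2 was the low one. After rescaling the libraries to a common FPKM sum, with or without mitochondrial genes, the breeds overlapped. With size factors, described below, they stayed apart. The means were 20.7 ± 5.70 and 11.1 ± 6.47 FPKM (SD, n = 2 each), 1.87-fold apart. The log2 difference, Hampshire minus Mali, was 0.93 with a standard error of 0.51 and a 95% interval from -0.26 to 2.12 (limma adjusted p = 0.826). It was 0.085 between the libraries without a suffix and 1.78 between those with it. Without Mali replicate 2 it was 0.36, and without Mali replicate 1 it was 1.504.

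MYF5, the other commitment factor, was low, at 0.940 and 0.556 FPKM among Hampshire libraries, compared with 0.386 and 0.243 among Mali. Both Hampshire libraries were above both Mali libraries, and within each breed replicate 1 was the higher. The share of genes this low that are separated in this way is not known. After rescaling to a common sum of all genes they overlapped. The mean was 2.38-fold higher in Hampshire, with no test because the gene did not reach 1 FPKM in any library. On the log2(FPKM + 1) scale, which understates differences of low genes, the difference was 0.40, and with a pseudocount of 0.1 it was 1.02.

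MYOG, the differentiation factor on chromosome 9 (113783233 to 113785312, minus strand), was at 21.3 and 27.8 FPKM among Hampshire libraries, compared with 24.9 and 20.3 among Mali. The breeds overlapped, with the highest library in Hampshire and the lowest in Mali. Its log2 difference was 0.11 with a standard error of 0.42 and an interval from -0.88 to 1.102 (limma adjusted p = 0.985), and it was -0.22 after rescaling the libraries to a common FPKM sum.

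MYF6 lies on chromosome 5 (100762918 to 100764771, minus strand), next to MYF5 (100753440 to 100755558, minus strand). MYF6 was at 42.4 and 55.0 FPKM among Hampshire libraries, compared with 38.6 and 97.8 among Mali. The Mali libraries lay on either side of the Hampshire pair, so the breeds overlapped. For MYF6 the log2 difference was -0.34 with a standard error of 0.57 and an interval from -1.68 to 0.996 (limma adjusted p = 0.965). It was 0.31 without Mali replicate 2, the high library, and -1.003 without Mali replicate 1.

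A gene on the opposite strand, LOC110260827 (100692813 to 100832403, annotated as protein coding), spans MYF5 and MYF6 entirely. Whether reads were counted by strand is not stated, so reads of the overlapping stretches cannot be assigned with certainty. LOC110260827 was at 7.37 and 4.73 FPKM among Hampshire libraries, compared with 9.50 and 9.28 among Mali. That is above every MYF5 value and below every MYF6 value, and its breed order is the reverse of that of MYF5. Its part in the MYF5 and MYF6 values was not tested.

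The relative make-up of the 4 myogenic regulatory factors does not depend on how libraries are scaled. Their order was the same in all 4 libraries, with MYF6 first, MYOG next, then MYOD1 and MYF5 last. MYF6 made up 52.1% and 50.9% of their summed FPKM in Hampshire and 48.6% and 78.4% in Mali. MYOD1 made up 20.5% and 22.9% in Hampshire and 19.7% and 5.22% in Mali, and MYOG made up 26.2% and 25.7% against 31.3% and 16.2%. Mali replicate 2 thus stood apart from the other 3 libraries, which had similar make-ups. MYF6 was 1.99 and 1.98 times MYOG in Hampshire, 1.55 times in Mali replicate 1 and 4.83 times in Mali replicate 2. The summed FPKM were 81.4 and 108 in Hampshire and 79.6 and 125 in Mali, and overlapped.

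**Figure D2:**
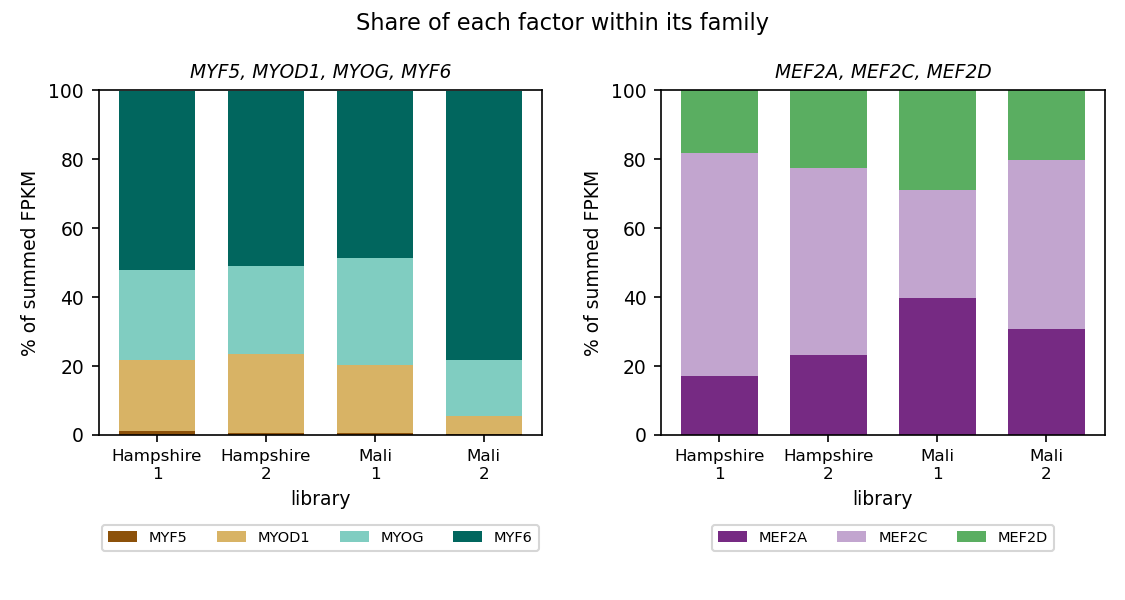
Percent of summed FPKM taken by each factor in each library, for the myogenic regulatory factors (left) and the MEF2 factors (right). MYF6 takes 48.6% to 52.1% in 3 libraries and 78.4% in Mali replicate 2, and MEF2A takes 17.1% and 23.3% in Hampshire against 39.9% and 30.8% in Mali.

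Of the MEF2 factors, MEF2A had the lowest unadjusted p of the 8 tested genes. MEF2A on chromosome 1 (138398270 to 138508639, plus strand) was at 15.7 and 24.1 FPKM among Hampshire libraries, compared with 31.6 and 43.6 among Mali. Both Hampshire libraries were below both Mali libraries, which 23.6% of all tested genes were as well. The means were 19.9 ± 5.87 and 37.6 ± 8.48 FPKM (SD, n = 2 each). The log2 difference was -0.89 with a standard error of 0.45 and an interval from -1.96 to 0.17 (limma adjusted p = 0.794). It was -0.96 between the libraries without a suffix and -0.83 between those with it. Under all 16 alternatives it was negative, from -1.23 to -0.60, and the lowest limma adjusted p was 0.509. Several alternatives, such as those of filter, trend or pair term, could not move the estimate.

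MEF2C on chromosome 2 (96122407 to 96296927, minus strand) was at 59.5 and 55.9 FPKM among Hampshire libraries, compared with 24.7 and 69.3 among Mali. The Hampshire libraries were close together and the Mali libraries lay on either side of them. A log2 difference of 0.47 had a standard error of 0.58 and an interval from -0.901 to 1.83 (limma adjusted p = 0.943). Within the pairs it was 1.24 without the suffix and -0.31 with it, and without Mali replicate 1 it was -0.26. An opposite-strand long noncoding RNA gene, LOC102159394 (96281234 to 96616438), covers 8.99% of the MEF2C span and was at 0.880 and 1.24 FPKM among Hampshire libraries, compared with 0.401 and 5.40 among Mali. It was highest in Mali replicate 2, as MEF2C was, and its part in the MEF2C values was not tested.

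MEF2D on chromosome 4 (93581563 to 93616980, plus strand) was at 16.6 and 23.2 FPKM among Hampshire libraries, compared with 22.9 and 28.3 among Mali. The breeds overlapped by a small margin. Its difference on the log2 scale was -0.36 with a standard error of 0.43 and an interval from -1.36 to 0.64 (limma adjusted p = 0.941). Leaving out Hampshire replicate 1 moved it to -0.13, and leaving out Hampshire replicate 2 to -0.59.

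Within the MEF2 family the shares of MEF2A and MEF2C did not overlap between the breeds, which scaling of the libraries cannot change. MEF2C was 3.78 and 2.32 times MEF2A in Hampshire and 0.782 and 1.59 times MEF2A in Mali. MEF2C made up 64.7% and 54.2% of the MEF2 sum in Hampshire and 31.2% and 49.1% in Mali. MEF2A made up 17.1% and 23.3% against 39.9% and 30.8%, and MEF2D overlapped at 18.1% and 22.5% against 29.0% and 20.1%. MEF2D was 1.06 and 0.964 times MEF2A in Hampshire and 0.727 and 0.651 times in Mali. These ratios were picked with the values known and carry no test. Of single tested genes 13% were separated with Hampshire higher and 23.6% with Hampshire lower, and the share of ratios so separated is not known.

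MEF2C is also made by endothelial cells and some leukocytes, so the markers of these cells are given beside it. All 6 endothelial markers were tested and their summed level was 40.9 and 94.4 FPKM among Hampshire libraries, compared with 44.0 and 50.2 among Mali. The sum of the 6 leukocyte markers was 8.06 and 14.8 FPKM among Hampshire libraries, compared with 5.80 and 5.39 among Mali. Both sums were highest in Hampshire replicate 2, whereas MEF2C was highest in Mali replicate 2. Of the endothelial markers VWF was also highest in Mali replicate 2, at 8.58 FPKM, and the others were highest in Hampshire replicate 2. The part of these cells in the MEF2C values was not tested.

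Of the satellite cell genes, PAX7 on chromosome 6 (77160827 to 77268626, plus strand) was at 0.831 and 1.41 FPKM among Hampshire libraries, compared with 0.734 and 1.05 among Mali. The breeds overlapped, and in both breeds the library with the suffix was the higher. The log2 difference was 0.16 with a standard error of 0.30 and an interval from -0.54 to 0.86 (limma adjusted p = 0.969). In bulk muscle, fewer satellite cells and less RNA per cell cannot be told apart.

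CDH15 on the same chromosome (636350 to 652260, minus strand) was at 9.75 and 9.23 FPKM among Hampshire libraries, compared with 17.5 and 9.11 among Mali. It was high in Mali replicate 1 and nearly equal in the other 3 libraries. Hampshire minus Mali was -0.38 with a standard error of 0.43 and an interval from -1.404 to 0.64 (limma adjusted p = 0.935), and it was 0.053 without Mali replicate 1. CDH15 was 11.7 and 6.56 times PAX7 in Hampshire and 23.9 and 8.68 times PAX7 in Mali. PAX7 lay near 1 FPKM without known precision, and the highest ratio was in Mali replicate 1, where CDH15 was high. Whether the 2 genes keep a fixed ratio therefore cannot be told. MYOD1 was 1.71 and 2.68 times CDH15 in Hampshire and 0.893 and 0.715 times CDH15 in Mali, without overlap between the breeds. Again there was no test, and the share of gene ratios separated in this way is not known.

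PAX3 on chromosome 15 (124093803 to 124193041, minus strand) was near the bottom of the table, at 0.0853 and 0.0116 FPKM among Hampshire libraries, compared with 0.0887 and 0.0116 among Mali. Its level was nearly the same in both breeds within each suffix and differed between the suffixes. No read depth is known, and how many fragments such values stand for cannot be given. PAX3 is also a factor of melanocytes and Schwann cell precursors. The melanocyte markers TYRP1 and MLANA were listed at 0 in all libraries. The 6 measured melanocyte and skin markers summed to between 0.0459 and 1.19 FPKM per library. The 1.19 FPKM, in Mali replicate 2, was all from the skin marker KRT5, with PMEL, DCT and TYR at 0 there. Schwann cell markers summed to 15.0 and 10.1 FPKM among Hampshire libraries, compared with 6.07 and 6.08 among Mali, and their part in the PAX3 values was not tested.

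**Figure D3:**
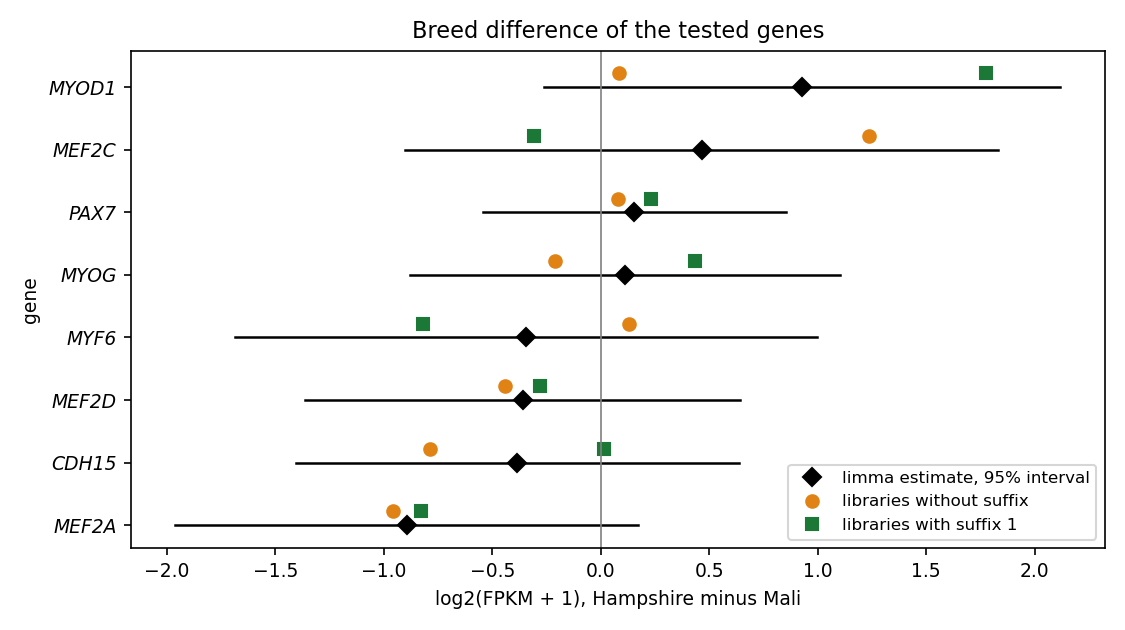
Hampshire minus Mali on the log2(FPKM + 1) scale for the 8 tested genes. Diamonds are limma estimates with 95% intervals over the 4 libraries, circles the difference between the libraries without a suffix, and squares that between the libraries with the suffix; every interval includes 0, and MEF2A, MEF2D, PAX7 and MYOD1 keep their sign in both pairs.

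Among the 8 tested members, PAX7 and MYOG stood nearest each other over the libraries. Likeness was taken as the root mean square difference of log2(FPKM + 1) after centring each gene over the 4 libraries, and it was 0.19 for this pair. MEF2A was nearest to MEF2D at 0.28, and MYOD1 stood 0.51 from MYOG, its nearest. Over all tested genes, those nearest to MYOD1 were C1QB at 0.087, GPAT3 at 0.091 and VCAM1 at 0.12, and 11 genes lay within 0.2 of it. MYOG had 1112 genes within 0.2, with B4GALT1, BNIP3L and TSPAN7 nearest, and PAX7 had 1147, with SGSH, RHBDF1 and TULP4 nearest. With 4 libraries, such nearness is common for genes that vary little.

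Genes that work with the members were described by lists. The E proteins TCF3, TCF4 and TCF12 are the dimer partners of the myogenic regulatory factors, and 0 of the 3 passed. TCF12 was the highest, at 9.76 ± 1.78 FPKM in Hampshire and 8.05 ± 1.18 in Mali, and TCF4 was at 3.57 ± 2.01 and 2.09 ± 0.533 FPKM. TCF3 was at 1.19 ± 0.431 and 1.69 ± 0.381 FPKM. Of 15 inhibitors of myogenic factors 10 were tested and 0 passed, with 3 positive and 7 negative differences and a median of -0.10, where the median of all genes was -0.12. One of the positive genes, HEY1, reached 1 FPKM in Hampshire alone, and without it the median was -0.18. ID proteins bind E proteins away from the myogenic factors. ID3 was at 21.7 and 23.3 FPKM among Hampshire libraries, compared with 12.3 and 20.8 among Mali, above without overlap, whereas ID1 was at 9.02 ± 6.23 and 12.7 ± 1.27 FPKM and ID2 at 2.12 ± 0.317 and 2.12 ± 0.191 FPKM. The histone deacetylases HDAC4 and HDAC5, which repress MEF2 proteins, were at 1.96 ± 0.695 and 15.0 ± 1.68 FPKM among Hampshire libraries, compared with 2.62 ± 0.544 and 21.7 ± 11.3 among Mali.

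Among genes of the satellite cell surface and niche, 12 of 16 were tested and 0 passed the limma test after adjustment. Of the 12, 10 had a positive difference, where 39.5% of all tested genes did, and the median was 0.56 against -0.12 over all genes. In 6 of the 12, both Hampshire libraries were above both Mali libraries, against 13% of all genes, and in 0 of the 12 both were below, against 23.6%. An unadjusted p under 0.05 was found for 2 of them, where 7.09% of all genes had one. FGFR4 is among the 10, the 6 and the 2, but was tested only through its Hampshire values. Without it, 9 of 11 were positive, 5 were separated with Hampshire higher, 1 had an unadjusted p under 0.05 and the median was 0.50. FGFR4, a fibroblast growth factor receptor of myoblasts, was at 1.83 and 3.21 FPKM among Hampshire libraries, compared with 0.517 and 0.742 among Mali (log2 difference 1.09, limma adjusted p = 0.545). VCAM1, an adhesion molecule, was at 10.5 and 14.6 against 8.40 and 4.25 FPKM. The laminin receptor subunit ITGA7 was at 26.0 ± 12.4 and 21.8 ± 11.3 FPKM, the adhesion molecule NCAM1 at 4.07 ± 0.230 and 4.79 ± 1.14, and the proteoglycan SDC4 at 6.58 ± 3.21 and 7.87 ± 1.43 FPKM. The median was positive under all 16 alternatives, from 0.29 without Hampshire replicate 2 to 0.84 without Hampshire replicate 1. Those of trend, row choice or pair term could not move it. VCAM1, CAV1, CD34 and CXCR4 of this list are also genes of endothelial cells or leukocytes. The summed markers of those cells, given above, were highest in Hampshire replicate 2, as VCAM1, CAV1 and CD34 were. CXCR4 was instead highest in Hampshire replicate 1, at 7.25 FPKM against 4.17 in Hampshire replicate 2. The part of those cells in the list was not tested.

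The Notch pathway keeps satellite cells quiescent in mouse. Of 12 Notch genes 10 were tested and 0 passed, with 9 positive and 1 negative difference, where 39.5% of all genes were positive. The median was 0.46, which was 0.0098 without Hampshire replicate 2. The receptor NOTCH3 was at 1.69 and 3.80 FPKM among Hampshire libraries, compared with 1.09 and 1.48 among Mali. The target HEYL was at 1.93 and 2.94 against 1.22 and 1.48 FPKM, and HES1 at 3.84 and 3.38 against 2.03 and 2.53. In 5 of the 10, among them these 3, both Hampshire libraries were above both Mali libraries, against 13% of all genes. HEY1 is one of the 5 and was tested through Hampshire alone; without it 8 of 9 were positive, 4 were separated and the median was 0.43. NOTCH1 lay under the filter, at 0.613 and 2.18 against 0.670 and 0.808 FPKM. Several Notch genes are expressed in blood vessels. The endothelial marker sum above was highest in Hampshire replicate 2, as NOTCH3 and HEYL were, whereas HES1 was highest in Hampshire replicate 1. Smooth muscle and pericyte markers summed to 101 FPKM in Hampshire replicate 1 and 68.9 in Hampshire replicate 2. Of these markers RGS5 was highest in Hampshire replicate 2, at 30.6 FPKM. The part of vessel cells in the Notch values was not tested.

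The homeobox and EYA genes that act upstream of the myogenic factors had no common direction, with 6 positive and 6 negative among 12 tested, 0 passing and a median of 0.0098, or -0.0014 without PITX3, which reached 1 FPKM in Hampshire alone. SIX4 and its coactivator EYA4 were at 7.85 ± 2.99 and 17.1 ± 4.13 FPKM among Hampshire libraries, compared with 9.71 ± 2.67 and 20.6 ± 2.50 among Mali. Of 23 partners and targets of MEF2, all tested, 11 differences were positive and 12 negative, 0 passed, and the median was -0.055. SMYD1, a muscle methyltransferase, was at 63.6 and 81.6 against 36.5 and 174 FPKM, and XIRP1, an actin-binding protein, at 13.9 and 33.9 against 41.6 and 24.2. HDAC9, both a MEF2 target and a MEF2 repressor in mouse, was at 4.24 ± 0.0936 and 3.17 ± 2.22 FPKM, and the coactivator PPARGC1A at 3.94 ± 2.53 and 3.36 ± 0.0904.

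Of 17 targets of the differentiation step 15 were tested and 0 passed in the main fit, 10 positive and 5 negative. With the title suffix as a replicate block, MYMK, CHRNA1 and CDKN1C passed, as given below. The median of the 15 was 0.14, and it was -0.18 after rescaling to a common sum, -0.022 with quantile normalization and 0.80 without Mali replicate 2. An unadjusted p under 0.05 was found for 4 of them, or 3 of 14 without MYMK, where 7.09% of all genes had one. The acetylcholine receptor subunit CHRNA1 was at 6.37 and 5.53 FPKM among Hampshire libraries, compared with 2.07 and 1.55 among Mali, with limma adjusted p = 0.453. The fusion protein MYMK reached 1 FPKM in Hampshire alone, with 3.71 and 2.71 FPKM there, 0.435 and 0.468 FPKM in Mali and a log2 difference of 1.53 (limma adjusted p = 0.417). CKM and DES, which encode creatine kinase and desmin of mature fibres, were at 22116 ± 5176 and 3157 ± 1274 FPKM among Hampshire libraries, compared with 15350 ± 4040 and 4059 ± 143 among Mali. The cell cycle inhibitor CDKN1A was at 26.3 and 28.6 FPKM among Hampshire libraries, compared with 126 and 11.8 among Mali, the Mali libraries lying on either side. MYOG itself, whose known targets include CHRNA1 and MYMK in mouse, overlapped between the breeds as given above. Its part in the CHRNA1 and MYMK values was not tested. Of 7 genes of developing muscle, 2 were tested, ACTC1 and DLK1, and neither passed in the main fit, though both did with the replicate block. ACTC1 was higher in both Hampshire libraries, and DLK1 reached 1 FPKM in Hampshire alone, so that it was tested because it was high there. MYH3, MYH8 and MYMX are not analysed here.

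**Figure D4:**
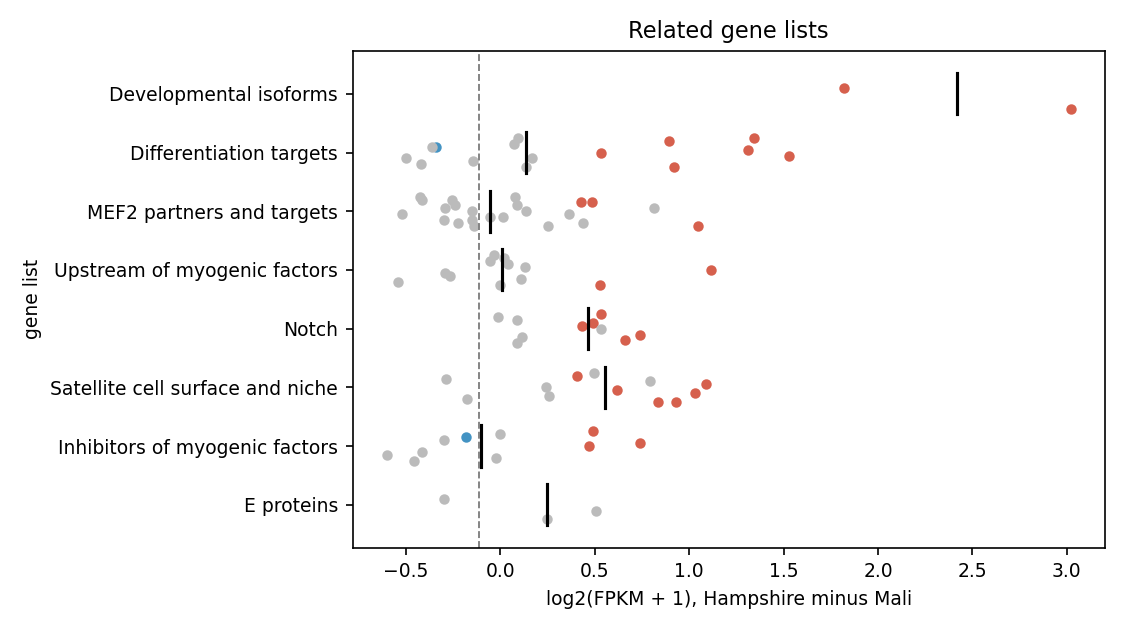
Hampshire minus Mali on the log2(FPKM + 1) scale for each tested gene of the related lists, with 1 point per gene, red where both Hampshire libraries were above both Mali libraries, blue where both were below and grey otherwise; vertical spread within a list carries no value. Black bars are list medians, 0.56 for the satellite cell surface list and 0.46 for Notch, and the dashed line is the median of all tested genes, -0.12.

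The labelled tissue was checked against muscle fibre markers, of which ACTA1, CKM, DES and TTN were measured and summed to between 37412 and 70522 FPKM per library. The 4 proliferation markers summed to 1.44 and 3.34 FPKM in Hampshire and to 0.730 and 0.398 in Mali, and none was tested. Fibroblast markers summed to 220 and 476 FPKM in Hampshire and to 77.1 and 231 in Mali, adipocyte markers to 72.7 and 328 against 111 and 80.9, and smooth muscle markers to 101 and 68.9 against 96.5 and 55.3. Red blood cell markers summed to 2545 and 3716 against 88.0 and 5480 FPKM, lowest in Mali replicate 1. The FPKM of all genes summed to between 516463 and 988614 per library.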

How the data were processed

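RNA sequencing of pig muscle biopsies gave 4 libraries, grouped by the breed in the labels and numbered within a breed by accession. Trizol RNA and TruSeq RNA library preparation were used, per the labels' protocols. The submitters' processing notes name HISAT2, Picard, Cuffdiff and Bowtie 0.12.2 without their roles, and no genome build or strand setting. The authors deposited FPKM of each gene in each library, their mean FPKM per breed, and a p-value and q-value of their own comparison. FPKM carry no read depth, so count tests, counting intervals and detection limits could not be given. Starts and ends of all 10 members equalled those of the RefSeq table of Sscrofa11.1, which gave the chromosome numbers.

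A row with no gene name was dropped, 26 symbols that appear as dates were taken from the gene ID column, and rows that share a symbol were summed. Where 2 or more libraries reached 1 FPKM, log2(FPKM + 1) was tested in R 4.3.3 with limma 3.58.1 (lmFit, eBayes with a mean-variance trend, 2 residual and 5.24 prior degrees of freedom). The two-sided test was adjusted by Benjamini-Hochberg over all 10075 genes, with a threshold of 0.05, and was checked on simulated data. Size factors were medians of ratios over the tested genes. Alternatives changed the pseudocount, filter, scaling, trend, row choice, libraries or pair term. Figures were drawn with matplotlib 3.10.9.

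The members and lists were chosen with earlier results of these data known. All members are named, and of each related list the genes chosen beforehand by name, of which 1 is not reported here; nearest genes are the 3 with the smallest root mean square difference. CXCR4, CAV1, CD34, HEY1, PITX3, CDKN1C, ACTC1 and DLK1 were named after their values were seen. List counts and medians are descriptions, with no set test.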

Additional observations from a re-analysis of the deposited data

How the results depend on the processing

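Across 16 alternatives, 0 members passed the limma test in each. An unadjusted p under 0.05 was found for MEF2A after rescaling to a common sum (adjusted p = 0.570), for MYOD1 without Mali replicate 1 (adjusted p = 0.540) and for MEF2C without Mali replicate 2 (adjusted p = 0.601). MYOD1, MEF2A and MEF2D kept their sign in all 16. Changes of filter, trend, row choice or pair term could not move these estimates, so the 16 are not separate checks. With libraries rescaled to a common sum the MYOG difference was -0.22. Leaving out 1 library turned the sign of 5 tested members and of PAX3, with ranges of -0.042 to 0.35 for PAX7, -0.070 to 0.29 for MYOG, -1.003 to 0.31 for MYF6, -0.82 to 0.053 for CDH15, -0.26 to 1.19 for MEF2C and -0.055 to 0.051 for PAX3. A lone library left in a breed was assumed to vary like the other breed.

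Over all genes 0 were called, against 1 where the mean had to reach 5 FPKM. Rescaling to a common sum gave 68, and doing so without mitochondrial genes gave 63. In both fits with a common sum the limma p-values were those of a normal distribution, as for MEF2A at -1.23 with a standard error of 0.56. There the prior variance replaced each gene's own spread, so the 68 and 63 calls and the unadjusted p of MEF2A given above rest on it. Leaving out 1 library gave 0 to 7, the 7 without Mali replicate 2. The cause was not tested. All genes had a median of -0.12 as deposited, -0.0082 with size factors and -0.40 with a common sum. The share higher in Hampshire among genes with unadjusted p under 0.05 was 60.5% of 714 as deposited and 23.2% of 733 after rescaling to a common sum. Under that rescaling MYF6, MEF2A and MEF2D were below in both Hampshire libraries and no member was above, where 34.9% and 5.18% of all genes were. Without mitochondrial genes in that sum, MYF5 and MEF2C were above and MYF6 and MEF2A below, where 9.6% and 19.9% of all tested genes were. With size factors MYF5 and MYOD1 were above and MEF2A below, where 16.8% and 17% of all genes were. The separation of MYOD1 by breed thus depends on the scaling.

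The title suffix does not state a pairing. With it as a replicate block, 261 of the 10075 tested genes were called, or 57 with size factors added. In either fit 0 members were called, and the lowest limma adjusted p of a member was 0.442, for MYOD1. The block leaves fewer residual degrees of freedom than the 2 of the main fit, so its calls rest more on the prior variance taken from all genes. Of the related lists, 5 genes were called in the fit of 261, namely 3 of 15 tested differentiation targets and the 2 tested genes of developing muscle. Their limma adjusted p was 8.40e-04 for ACTC1, 0.00116 for DLK1, 0.00426 for MYMK, 0.0327 for CHRNA1 and 0.0355 for CDKN1C. DLK1 and MYMK were tested only because they were high in Hampshire, so their p-values are not support for a breed difference. None of the 5 passed without the block. The deviations of same-suffix libraries from their breed means correlated across genes at 0.28, over 2 pairs. The list medians under these alternatives, and the list counts without genes tested through 1 breed, were added after seeing the data; those of the satellite cell surface, Notch and developmental lists stayed positive, and the others turned negative or positive under at least 1. No tested Notch gene reached a mean of 5 FPKM. Without known depth, low values such as those of PAX3 and MYF5 have no known precision.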

Other observations

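Some genes of the related lists lay under the filter and had no test, and those named here were chosen after their values were seen. CALCR, the calcitonin receptor, which marks quiescent satellite cells in mouse, was at 0.872 and 1.35 FPKM among Hampshire libraries, compared with 0.0906 and 0.155 among Mali. Both Hampshire libraries were above both Mali libraries, and the mean was 9.07-fold higher, a ratio that rests on the low Mali values. The share of untested genes separated in this way is not known. PAX7 in the same libraries overlapped between the breeds. HGF, a growth factor that activates satellite cells, was at 0.399 and 0.859 FPKM among Hampshire libraries, compared with 0.287 and 0.135 among Mali. CHRNG, the fetal subunit of the acetylcholine receptor, was at 0.231 and 0.462 FPKM among Hampshire libraries, compared with 0.0595 and 0.0666 among Mali. TNNT2, the cardiac and developmental troponin T, was at 0.565 and 5.24 against 0.155 and 0.594 FPKM, and its breeds overlapped. Read depth is unknown, so the precision of these low values cannot be given.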
